A study of Mus musculus with 2 samples.

Results

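The cytosolic ribosomal protein genes encode the proteins of the large (Rpl) and small (Rps) ribosomal subunit. Members were taken by symbol from the platform annotation: Rpl or Rps followed by a digit, the stalk genes Rplp0, Rplp1 and Rplp2, and Rpsa. The Rps6k kinases, symbols containing -ps and pseudogenes were left out. Of 20737 genes named on the array, 77 were members, covered by 169 probes, and 75 of these were among the 13410 genes detected on at least 1 of the 2 arrays. One member, Rps19bp1, meets the rule by its letters but encodes a protein that binds Rps19 and is no subunit protein. Its value is therefore given apart from the 48 detected large subunit and 26 detected small subunit genes.

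The arrays compare naive CD4 T cells of C57BL/6 spleen, labelled Gfi1 wild type or Gfi1 knock out, 1 array for each label. GFI1 is a zinc finger protein that represses transcription in blood cells, and the series asks about its part in the programme of type 1 T helper (Th1) cells. Cells of both labels were activated for 2 days on plate-bound antibody to TCR-β (3 µg/ml) and antibody to CD28 (1 µg/ml), in IL-2 (10 ng/ml) with antibodies that block IL-4 (5 µg/ml) and IFN-γ (5 µg/ml). Each array received Cy3-labelled material amplified from 100 ng of total RNA. How the Gfi1 gene was inactivated, and the age and sex of the animals, are not given in the sources used here. Signals are linear scanner units. A difference is the log2 signal of the library labelled knockout minus that of the library labelled wild type, after each array's 75th percentile (263 and 269 units) was subtracted. Equal raw signals on both arrays thus read as -0.03. With 1 array per label there are no replicates and no test, so each difference is between these libraries only, and an SD is over different probes of a gene.

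Signals are given below as a pair, first the library labelled wild type and then the library labelled knockout. The single Gfi1 probe read 4260 and 18100 units, a difference of 2.05 against the label. Where this probe lies relative to the inactivated part of the gene is not known, so it does not check the labels. Xist, the RNA of the inactive X chromosome, read 447 and 3.86 units, and Y-linked Eif2s3y read 2.91 and 3870 units, in the same order. Genotype label and these sex-linked readings cannot be told apart in any difference below. Of the CD4 T cell markers, 9 were detected, with summed signals of 181495 and 163125 units, and they were split: 6 read lower, among them Cd5 (71000 and 53900 units), Cd3e (20900 and 15900) and Cd4 itself (2319 and 2146), while Icos (0.77), Trat1 (0.74) and Cd2 (0.51) read higher. All 8 CD8 T and NK cell markers read higher in the library labelled knockout, with summed signals of 277 and 936 units. Of these, Cd8a, Klrb1c, Ncr1 and Klrk1 were detected only in that library, so their direction was set by the detection rule. The 6 detected B cell markers summed to 501 and 1103 units, with 5 higher and 1 lower. Blnk (30.6 and 386 units) and Ms4a1 (18.9 and 221) differed most, while Cd79b read 281 and 256 units. The 5 detected myeloid markers summed to 398 and 886 units. Mpeg1 (11.7 and 335 units) and Fcer1g (89.4 and 252) differed most, while Csf1r (122 and 121) and Itgam (161 and 157) differed little. For Ebf1, Cd68 and Mpeg1 the wild type signal lay below the detection floor. Pax5, Lyz2, Cd14 and S100a8 were not detected. The 2 detected red cell markers summed to 21.0 and 53.3 units. The part of these markers in the ribosomal protein values was not tested.

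Each ribosome holds a single copy of most of these proteins, so cells keep their synthesis balanced. In mammals the transcripts begin with a run of pyrimidines, the terminal oligopyrimidine (TOP) motif, through which LARP1 and mTOR signalling set how well they are translated. Activated T cells make many new ribosomes as they grow, with MYC as a regulator of that growth.

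The start sites of the members that carry the results are shown first, as the 15 bases on either side of the gene's annotated start, from RefSeq on GRCm38.p6, read on the strand of the gene. Capitals mark the longest run of C and T in each window. The first 6 are genes with a run of at least 8 whose values or probes are described below, and Rps6 is the substrate that gives the S6 kinases their name. Rpl39 is paired with its paralogue Rpl39l, the member with the highest difference, and Rps19bp1 is the member with the lowest.
Rpl14 (chr9:120571502-120571531, plus strand): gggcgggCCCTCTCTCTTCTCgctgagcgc
Rpl15 (chr14:18270972-18271001, minus strand): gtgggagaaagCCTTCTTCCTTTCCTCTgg
Rpl27a (chr7:109519180-109519209, plus strand): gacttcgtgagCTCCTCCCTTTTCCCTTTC
Rpl35 (chr2:39005117-39005146, minus strand): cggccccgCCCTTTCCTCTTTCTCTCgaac
Rps6 (chr4:86857353-86857382, minus strand): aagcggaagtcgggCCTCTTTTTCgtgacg
Rps15a (chr7:118116133-118116162, minus strand): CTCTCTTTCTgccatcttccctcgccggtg
Rpl39 (chrX:37085208-37085237, minus strand): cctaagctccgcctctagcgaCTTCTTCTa
Rpl39l (chr16:10170213-10170242, plus strand): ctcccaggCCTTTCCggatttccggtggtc
Rps19bp1 (chr15:80264292-80264321, minus strand): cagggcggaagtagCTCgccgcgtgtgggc
Within the window the run was 19 bases long in Rpl27a, 18 in Rpl35, 17 in Rpl15 and 14 in Rpl14. It was 10 in Rps6 and in Rps15a, 8 in Rpl39, 7 in Rpl39l and 3 in Rps19bp1. The runs of Rpl27a and Rps15a reach the edge of the window and may extend beyond it. Those of Rps15a and Rpl39l lie wholly before the annotated start, and that of Rpl39 lies wholly after it. Of the 63 members with a start site in the RefSeq table, 26 (41.3%) held a run of at least 8 pyrimidines in this window, against 14% of 17492 protein-coding genes and 13% of 69 mitochondrial ribosomal protein genes.

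Ribosomal protein transcripts read close to the same in both libraries. Over the 75 detected members the median difference was -0.04, with quartiles of -0.07 and 0.00, beside a median of -0.05 and quartiles of -0.20 and 0.14 over all 13410 detected genes. In all, 72 members (96.0%) lay within 0.2 of 0 and 64 (85.3%) within 0.1, beside 54.9% and 30.7% of all detected genes. At a log2 difference of 1, 1 member (Rpl39l) read higher and 0 read lower, where 3.62% of all detected genes read higher and 1.52% lower. At 0.5 the counts were 2 (Rpl39l and Rps15a) and 0, where the background was 9.12% and 5.85%. Since these are bulk samples, fewer cells of a type and less RNA per cell cannot be told apart, and since every array received the same mass of RNA, a shift shared by most transcripts would not show.

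**Figure D1:**
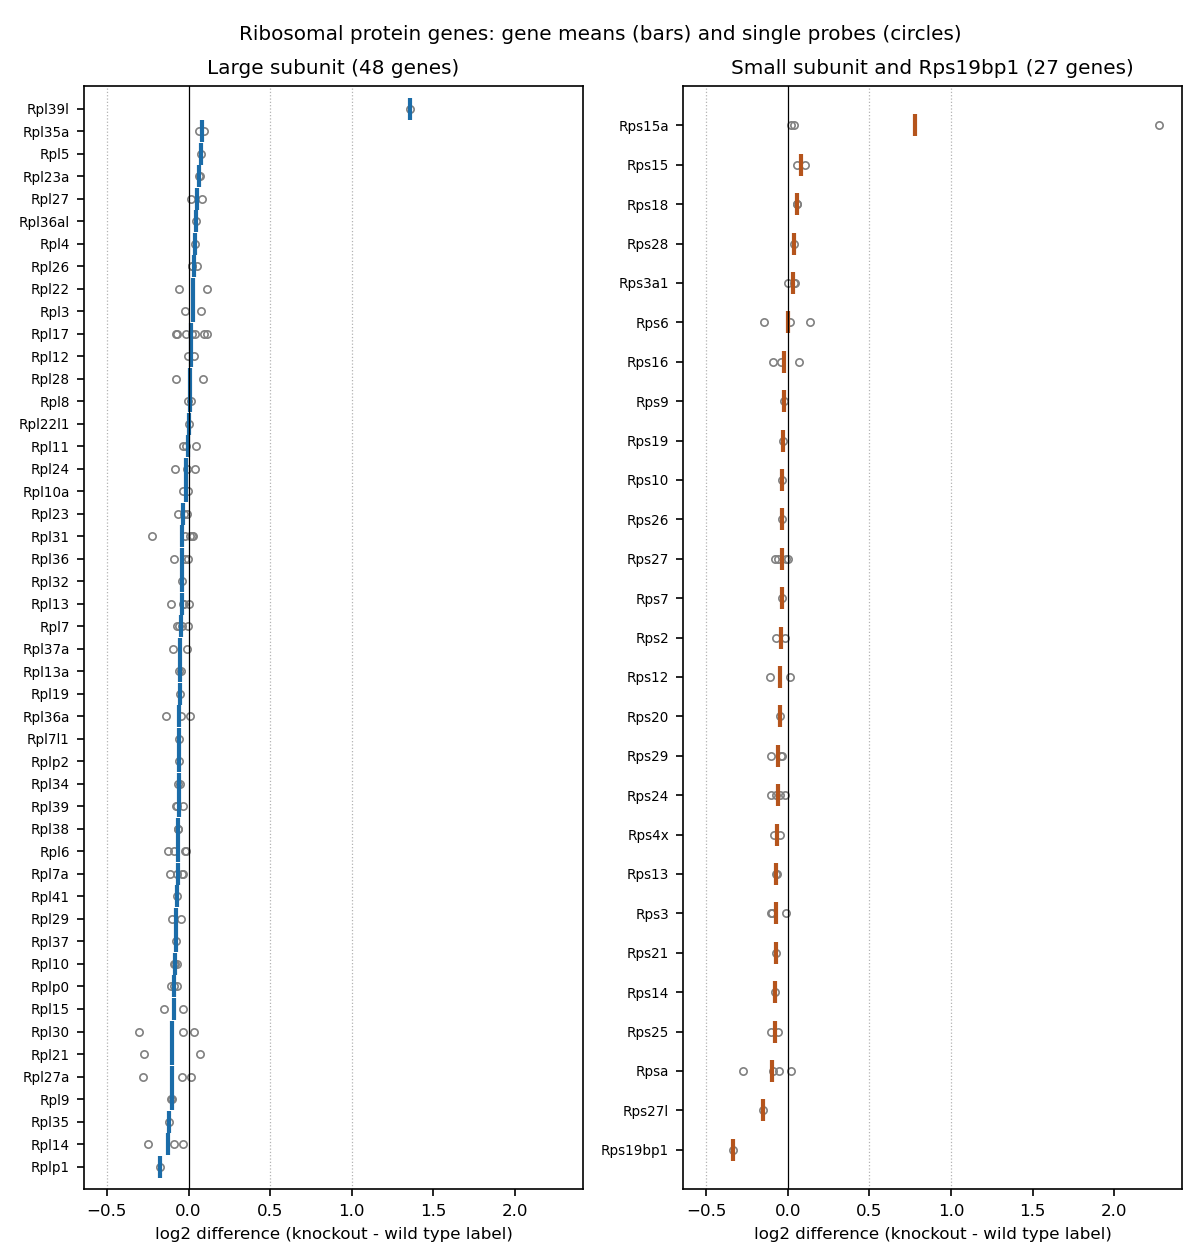
Difference of each detected member between the 2 libraries (x axis, log2 units, labelled knockout minus labelled wild type), with large subunit genes on the left and small subunit genes and Rps19bp1 on the right. Bars are gene means over probes and circles are single probes; 72 of 75 genes lie within 0.2 of 0, and Rpl39l, 1 probe of Rps15a, and Rps19bp1 stand away from the rest.

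High signals were shared by nearly the whole group. Of the 166 member probes kept, 143 read at least 30000 units on both arrays, and the medians over probes were 106000 and 106500 units. Bright genes vary less on these arrays, so the members of at least 30000 units were set beside other genes of at least 30000 units. The 62 bright members had a median of -0.04 and an SD over genes of 0.06, and 90.3% lay within 0.1 of 0. The 330 other bright genes had a median of -0.05 and an SD of 0.22, and 55.5% lay within 0.1. Between 100000 and 200000 units the gap was smaller, with quartiles of -0.07 and 0.00 for 65 member probes and of -0.10 and 0.01 for 92 other named probes. Above 200000 units 25 member probes and 38 other named probes both had a median of -0.07. The highest signals on the arrays were 361000 and 363000 units, and the files hold no saturation flag, so whether the brightest probes understate a difference was not tested.

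**Figure D2:**
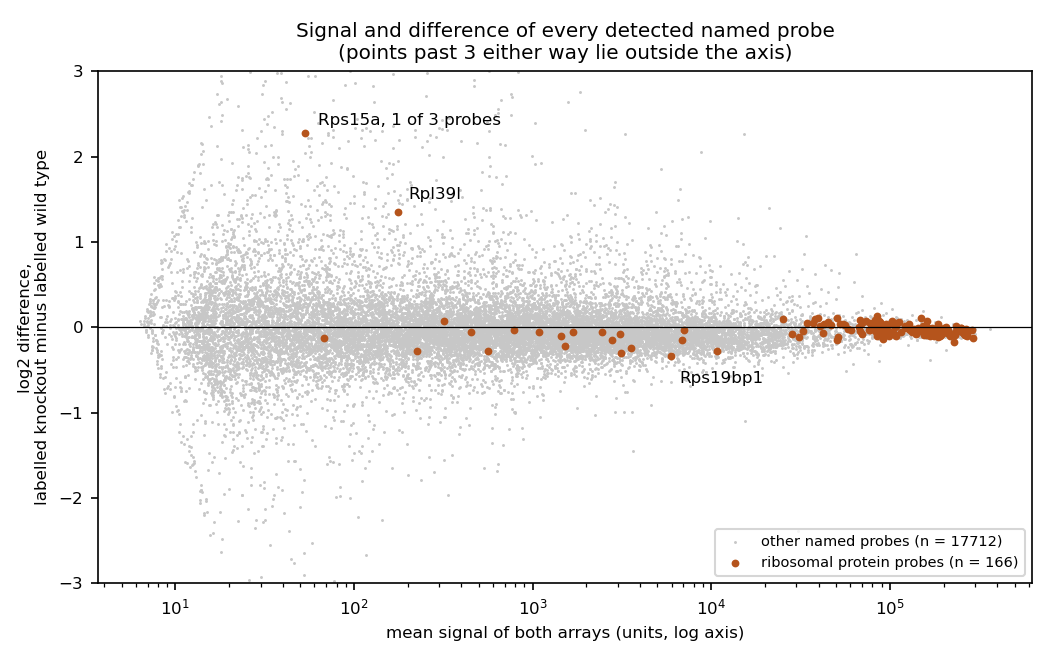
Mean signal of both arrays (x axis, scanner units, log axis) against the log2 difference (y axis) for 166 ribosomal protein probes (orange) and the other detected named probes (grey). Most orange points form a narrow band at the bright end, and the 2 member probes past a difference of 1, of Rpl39l and Rps15a, read under 300 units on both arrays.

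Both subunits gave like values. The 48 large subunit genes had a median of -0.05, with 14 above 0, and the 26 small subunit genes a median of -0.04, with 6 above 0. In all 26.7% of the members lay above 0, beside 41.6% of all detected genes and 30.6% of other genes of at least 30000 units. Without Rpl39l, Rps15a and Rps19bp1 the 72 remaining genes ran from -0.18 to 0.08 with a median of -0.05 and an SD of 0.05. The genes left out were chosen after their values were seen, and over all 75 members the SD was 0.20. The SD of repeat spots, 0.04 for probes of at least 5000 units, is a spread within a probe and is not comparable to one over genes. For genes with several probes the median SD over probes was 0.04, beside 0.10 over all genes. These sets differ in signal, with wild type medians of 85839 units for the members and 520 units for all such genes, and spread falls as signal rises.

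The acidic stalk, which recruits elongation factors to the large subunit, read slightly lower in the library labelled knockout for each of its 3 genes, except that Rplp2 read 0.01 under quantile normalization. Rplp0, the base of the stalk, gave 107000 and 104000, 222000 and 211000, and 269000 and 259000 units on its 3 probes, a difference of -0.09 ± 0.02 (SD over 3 probes). Rplp1 read 242000 and 219000 units on 1 probe, a difference of -0.18, the lowest of any subunit protein gene. Its partner Rplp2 read 269000 and 264000 units, a difference of -0.06. All of these probes but 1 of Rplp0 lie above 200000 units, where other named probes had a median of -0.07 and an SD of 0.06. Of the stalk genes Rplp1 lay furthest from that median, but on 1 probe, and it read -0.12 under quantile normalization. Rpsa, which encodes the small subunit protein also known as the laminin receptor, gave -0.10 ± 0.13 (SD over 4 probes).

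Besides Rps19bp1, Rplp1 and the paralogue Rps27l, the lowest gene differences were small. Rpl35, which sits near the exit of the peptide tunnel, read 303000 and 285000 units on its 1 probe, a difference of -0.12. Rpl14 gave -0.12 ± 0.11 over 3 probes and Rpl27a gave -0.10 ± 0.16 over 3 probes. In both of these genes 1 dim probe lay below -0.2 and the brighter probes lay within 0.1 of 0. Rpl9 gave -0.10 ± 0.00 over 2 probes (geometric means of 225340 and 214518 units). Rpl21 was seen only by 2 dim probes on opposite sides of 0, of 246 and 208 units (-0.27) and of 309 and 332 units (0.07).

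The highest members below a difference of 0.5 were equally close to 0. Rps15 (0.08 ± 0.04, 2 probes), which lies in the head of the small subunit, read 38000 and 41800 units on 1 probe and 75100 and 79800 on the other. Rpl35a (0.08 ± 0.02, 2 probes) read 24100 and 26300 units on 1 probe and 84800 and 90800 on the other. Rpl5, which carries 5S rRNA into the large subunit together with Rpl11, read 70800 and 76300 units on 1 probe, a difference of 0.08. Its partner Rpl11 gave 0.00 ± 0.04 over 3 probes. Rpl23a and Rps18 gave 0.06 and Rpl27 gave 0.05, each over 2 probes of the same sign. No repeat array shows whether these values exceed the spread between cultures.

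A list of 17 detected members in which variants are known to cause Diamond-Blackfan anaemia, a red cell disorder, had a median of -0.03, with 6 above 0. The list does not hold every gene linked to that disorder. Among them Rps19, the gene most often involved, read 76100 and 76400 units, a difference of -0.03. The 4 X-linked members all read slightly lower in the library labelled knockout: Rpl10 -0.08 ± 0.01 (3 probes), Rps4x -0.07 ± 0.03 (2 probes), Rpl39 -0.06 ± 0.03 (3 probes) and Rpl36a -0.06 ± 0.07 (3 probes). Their median was -0.06, beside -0.04 for the 71 autosomal members, of which 51 (71.8%) also lay below 0. The libraries differ in Xist as given above, and the part of this in the X-linked values was not tested.

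Paralogues are second copies of a ribosomal protein gene that in some tissues replace the usual protein. Of the 7 on the array 5 were detected, and 4 of these lay within 0.2 of 0. Rpl22l1, the copy of Rpl22, read 66400 and 67900 units, a difference of 0.00, and Rpl22 itself gave 0.03 ± 0.12 over 2 probes. Rps27l read 52900 and 48800 units, a difference of -0.15, while Rps27 gave -0.04 ± 0.04 over 4 probes. RPS27L is known as a product of the p53 response. Rpl36al read 36000 and 38000 units (0.05), and its X-linked counterpart Rpl36a is given above. Rpl7l1 read 1100 and 1080 units (-0.06), beside -0.04 ± 0.03 over 4 probes for Rpl7. Rpl3l, known from muscle, read 3.35 and 4.04 units and was not detected, where Rpl3 gave 0.03 ± 0.07 over 2 probes. Rpl10l, known from testis, read 9.40 and 5.55 units on 1 probe and 3.38 and 3.77 on the other, neither detected, where Rpl10 gave -0.08.

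Rpl39l was the exception. This autosomal copy of X-linked Rpl39, known from male germ cells, read 109 and 285 units on its 1 probe, a difference of 1.35 or 2.56-fold. Rpl39 read 98800 and 95700, 107000 and 104000, and 787 and 787 units on its 3 probes. The parent thus lay within 0.1 of 0 on each probe, with equal raw signals on the third. Of 2011 other named probes between 100 and 300 units with feature numbers up to 50000, 3.93% read higher by at least 1 and 2.69% by at least as much as Rpl39l. No second probe measures Rpl39l, and with the detection floor at the 75th percentile its difference is 0.08, because both signals then lie at or near the floor.

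Rps15a, a small subunit protein, owes its gene value of 0.78 ± 1.30 (SD over 3 probes) to 1 probe. That probe read 24.0 and 119 units, a difference of 2.28 or 4.85-fold. The other 2 read 90900 and 94200 units (0.02) and 99100 and 104000 units (0.04), with a mean of 0.03 ± 0.01. The dim probe has a feature number above 50000, and among dim named probes 14.8% of those with such numbers differed by at least 1 either way, against 6.28% of those with lower numbers. Rps15a was the only member whose probes spanned more than 0.5.

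Rps19bp1 (also called AROS, a regulator of the deacetylase SIRT1) read 6630 and 5380 units on 1 probe. Its difference of -0.33 was the lowest of the 75 members, and it is the member that is not a subunit protein. Between 5000 and 30000 units the 2262 other named probes had a median of -0.07 with an SD of 0.26.

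For 16 members a dim and a bright probe, at least 10-fold apart in signal, measured the same gene, and in 11 the dim probe gave the lower difference. The median of dim minus bright was -0.11. For Rpl30 the dim probe read 3420 and 2830 units (-0.31) and the bright probe 93300 and 97800 (0.04). That dim probe has a feature number above 50000, as have the dim probes of Rpl39, Rps15a and Rps25. For Rpl27a the values were 11800 and 9940 (-0.28) against 150000 and 149000 (-0.04), and for Rpl31 they were 1620 and 1420 (-0.22) against 128000 and 129000 (-0.02). The gap ran the same way in Rpsa, with 615 and 520 units (-0.27) on the dim probe and 236000 and 227000 (-0.09) on the bright one. In Rpl14 it was 3840 and 3310 (-0.25) against 223000 and 214000 (-0.09), and in Rpl15 it was 2900 and 2670 (-0.15) against 141000 on both arrays (-0.03). The other way round, Rps24 gave -0.05 on its dim probe and -0.10 on its bright probe, and Rps25 gave -0.06 and -0.10. Among 1176 other genes with such a pair of probes the median of dim minus bright was -0.03, and the dim probe was the lower in 53.7%, against 68.8% of the 16 members. A gap of at least 0.15 in that direction was seen in 7 of 16 members (43.8%) and in 32.3% of the other genes. With dim probes held to at least 200 units and bright probes to at least 5000 units in both sets, 14 members had a median of -0.14 and 238 other genes one of 0.00, and the gap was seen in 7 of the 14 members and in 22.3% of the others. With so few members no difference between the sets is drawn from these shares. Different probes of a gene can bind different transcript forms, and which forms the dim probes bind was not tested.

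**Figure D3:**
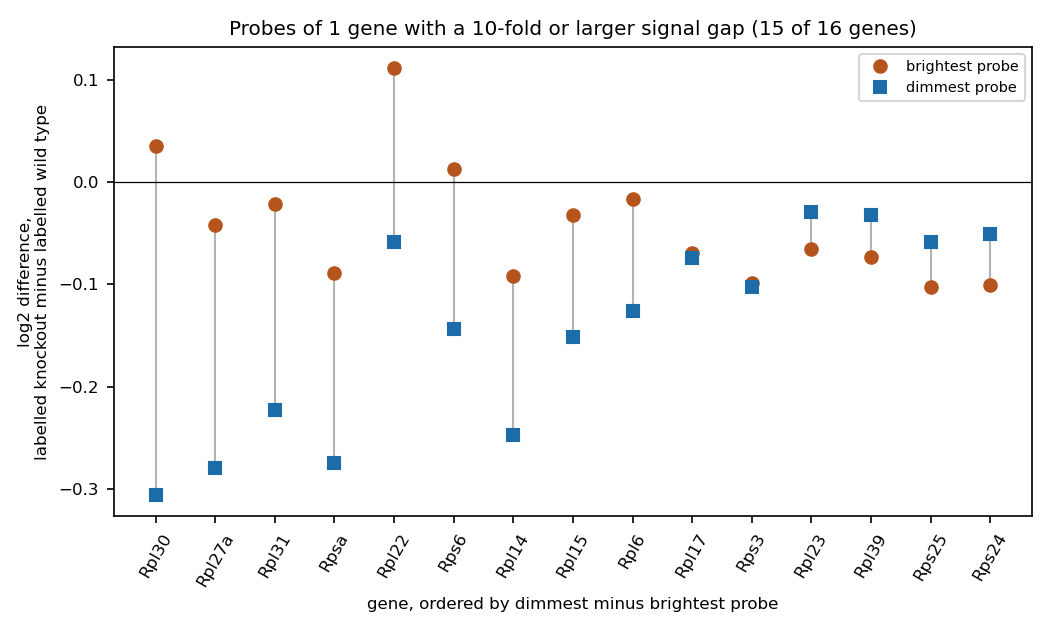
Log2 difference (y axis, labelled knockout minus labelled wild type) of the dimmest (squares) and brightest (circles) probe of 15 genes whose probes are at least 10-fold apart in signal, ordered by dimmest minus brightest (x axis); Rps15a, whose dim probe lies at 2.28, is left out. The bright probes lie between -0.10 and 0.11, and 5 dim probes lie below -0.2.

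The wider translation machinery was read from lists of its parts. Elongation factors and other genes with a TOP motif gave values like those of the ribosomal proteins. Over 19 genes the median was -0.03, with 4 above 0, and none lay past 0.5. Eef1a1, which brings aminoacyl-tRNA to the ribosome, read 86208 and 92520 units (0.07 ± 0.01, 2 probes), and Eef2, which drives translocation, read 101000 and 103000 units (0.00). Tpt1, a growth-related TOP transcript, gave -0.03 ± 0.01 over 3 probes, Pabpc1, the poly(A)-binding protein, gave -0.12, and Fau, whose product is cleaved to the small subunit protein eS30, read 266000 and 271000 units (-0.01). The 28 initiation factors had a median of -0.10, or -0.05 under cyclic loess. Of these 24 (85.7%) lay below 0, where 58.4% of all detected genes and 64.0% of other genes of at least 500 units did. They ran from Eif2b1, a subunit of the exchange factor for eIF2, at 6440 and 5440 units (-0.28) to the cap-binding protein Eif4e at 0.22 ± 0.25 over 2 probes.

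Mitochondrial ribosomal protein genes, whose products form the separate ribosome of mitochondria, read lower than the cytosolic ones. Their 77 detected genes had a median of -0.14, with 65 below 0 and 12 above, which is 0.09 below the median of the cytosolic genes. The lowest was Mrpl49, at 2725 and 2080 units (-0.42 ± 0.18, 2 probes), and the highest Mrpl1, at 1090 and 1340 units (0.27). No gene of the list lay past 0.5. The share below 0 was 84.4% in the list, 58.4% over all detected genes and 64.0% over the 6569 other genes of at least 500 units, which had a median of -0.06. Under cyclic loess the median of the list was -0.08. Under the 13 other ways of processing that were tried, the mitochondrial median stayed between 0.07 and 0.10 below the cytosolic one. The lists differ in signal as well, with gene medians of 6182 units for the mitochondrial and 87866 units for the cytosolic genes in the library labelled wild type.

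Factors that carry or assemble ribosomal proteins had a median of -0.16 over 14 genes, or of -0.08 with the brightest probe of each gene and -0.10 under cyclic loess. Of these 12 (85.7%) lay below 0, beside the same 58.4% and 64.0%. Tsr2, the chaperone of Rps26, read 137 and 86.4 units (-0.70), while Rps26 itself read 188000 units on both arrays (-0.03). Nol6 read 1600 and 1260 units (-0.38), and Grwd1, a chaperone of Rpl3, gave -0.24 ± 0.23 over 2 probes. Ltv1, which exports the small subunit, read 8100 and 8160 units (-0.02). The exception upward was Nop53, which binds 5S rRNA particles, at 3240 and 3910 units (0.24).

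Regulators of ribosome production were split, with 9 of 19 above 0 and a median of -0.04. That share, 47.4%, is near the 41.6% of all detected genes above 0. Myc, a transcription factor for ribosomal protein and rRNA genes, read 4335 and 6279 units (0.50), the highest of the list. Eif4ebp1, the mTOR substrate that blocks Eif4e, read 10500 and 14000 units (0.38). Mtor read 427 and 426 units (-0.04), and Larp1, which binds the TOP motif, gave 0.05 ± 0.13 over 2 probes. Restraints of mTOR lay on both sides, with Tsc2 at 36.9 and 20.5 units (-0.88), Sesn1 at 2560 and 1660 (-0.66) and Sesn2 at 739 and 905 (0.26). Tsc2 rests on 1 dim probe near the detection floor, and the probes of Tsc2 and Sesn2 have feature numbers above 50000. As given for Rps15a, 14.8% of dim named probes with such numbers differed by at least 1 either way, against 6.28% of those with lower numbers. The 9 detected Rps6k kinases, which the symbol rule leaves out, had a median of 0.00, and Rps6kb1, the main kinase of Rps6, gave 0.02 ± 0.12 over 3 probes. Rps6 gave 0.00 ± 0.14 over 3 probes, of 7150 and 6620, 79900 and 89900, and 157000 and 162000 units. None of the genes on these translation lists lay past 1. RNA levels say nothing of phosphorylation, through which mTOR and the S6 kinases act.

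**Figure D4:**
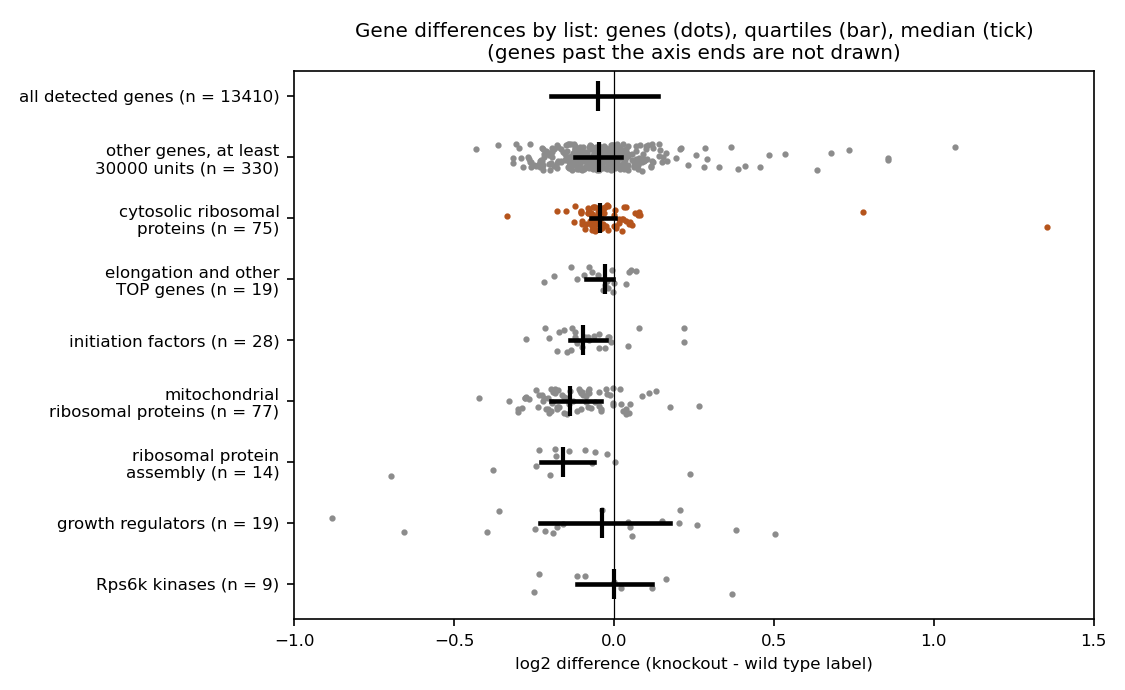
Gene differences (x axis, log2 units, labelled knockout minus labelled wild type) for the ribosomal protein genes, the translation lists, other bright genes and all detected genes; dots are genes (not drawn for all detected genes), thick bars run between quartiles and ticks are medians. The ribosomal protein bar, -0.07 to 0.00, is narrower than that of all detected genes, -0.20 to 0.14, and the mitochondrial list is centred at -0.14.

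Start-site sequences were searched for 3 features in the 63 members with a window. Members with a run of at least 8 pyrimidines within 15 bases of the start had a median difference of -0.05 (26 genes) and those without it -0.04 (35 detected genes). ACTTCCG, a core to which ETS factors bind, was searched on either strand from 250 bases before to 50 bases after the start. It stood in 23 members (36.5%), in 9.39% of the 17492 protein-coding genes and in 24.6% of the mitochondrial ribosomal protein genes. The median difference was -0.05 with it and -0.03 without it. AATCAC, the core bound by GFI1, was found on either strand in 4 members (6.35%), Rpl22, Rpl4, Rps15 and Rps15a, and in 11.2% of protein-coding genes. Those 4 genes had a median difference of 0.06, or 0.03 with Rps15a taken without its dim probe, and the 57 other detected members a median of -0.05. A match describes the letters only.

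How far the median of the members lies from 0 depends on scaling. Under quantile normalization its median was 0.00, with 35 of 75 genes above 0, and under cyclic loess it was 0.00, with 37 above 0, where the reported scaling has 20 above 0.

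**Figure D5:**
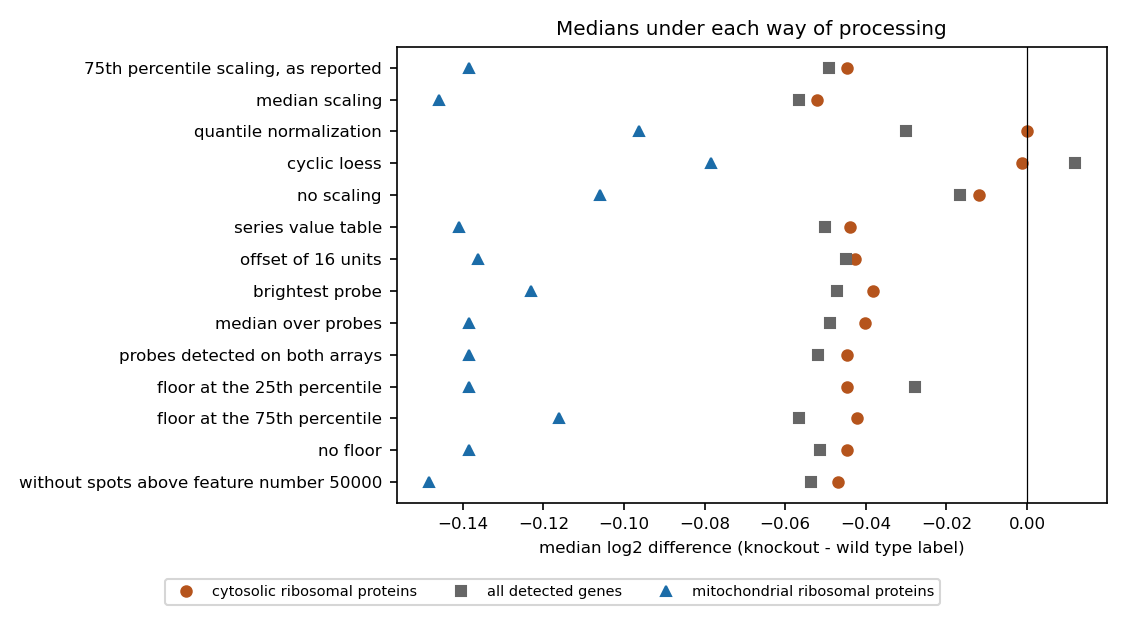
Median log2 difference (x axis) of the cytosolic (circles) and mitochondrial (triangles) ribosomal protein genes and of all detected genes (squares), under the reported scaling and 13 alternatives (y axis). Circles lie between -0.05 and 0.00, and in each of the settings the triangle lies to the left of the circle.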

How the data were processed

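The deposited per-array files give the authors' intensity per spot on a linear scale to 3 significant digits. Per the submitters' processing notes, Agilent Feature Extraction 11.5.1.1 was used. No source used here states the background correction, and detection and saturation flags are absent from the files. A second deposited table holds intensity values that are the per-array ones times about 2.27 and 2.26, linear and not centred (column medians 34.4 and 34.8); the origin of these constants is unknown, and it was used as an alternative.

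Spots were averaged per probe on the log2 scale and each array's 75th percentile was subtracted. A probe was detected above its array's median (14.2 and 14.6 units), and an undetected side was set to that floor. A gene is the mean of its probes detected on at least 1 array, and its quoted signal their geometric mean. Rounding to 3 digits moves a difference by up to 0.01. Genes were counted at differences of 1 and 0.5. Symbols came from the platform annotation, updated through RefSeq (GRCm38.p6), which also gave chromosomes and start sites. The number of arrays limits the precision.

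Named were the 8 highest and 8 lowest members, members past 0.5, paralogues with their parents, stalk and X-linked members, Rpsa, members with discordant probes and undetected members; other members and list genes named were chosen after their values were seen. Members and lists were chosen with earlier results of these data known. Python 3.11.15, numpy 2.4.6, pandas 2.3.3 and statsmodels 0.14.6 were used, and the scripts were tested on simulated data.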

Additional observations from a re-analysis of the deposited data

How the results depend on the processing

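The values were recomputed under 13 alternatives of scaling, source table, background, probe averaging, detection and array position, under thresholds of 0.2 and 0.3, and with members left out. Of 190 recomputed answers to comparisons 166 stayed within the spread set for them (0.04 for a median, 1.5 times for a count) and 24 moved. Changes of sign were not counted for medians. Some medians near 0 did change sign, such as that of TOP and elongation genes, from -0.0282 as reported to 0.0158 under cyclic loess. Of 389 recomputed values of named genes 45 moved. Under quantile normalization the median was 0.0000 for all members, -0.0010 for the large and 0.0064 for the small subunit, and -0.0963 for mitochondrial ribosomal proteins. Under cyclic loess these were -0.0012, -0.0005, 0.0018 and -0.0783, with 0.0158 for TOP and elongation genes, -0.0478 for initiation factors, 0.0297 for growth regulators, -0.1016 for assembly factors and 0.0516 for Rps6k kinases. The median of all detected genes ran from -0.0567 to 0.0118. With the brightest probe of each gene the assembly factors gave -0.0833 and the kinases -0.0659. With the floor at the 75th percentile the growth regulators gave 0.0070, and without spots above feature number 50000 they gave 0.0396. Members higher by at least 0.5 numbered 1 in place of 2 with the brightest probe, the median over probes or without spots above 50000, and 0 with the floor at the 75th percentile, where 0 were higher by at least 1. At thresholds of 0.2 and of 0.3, 1 member (Rps19bp1) read lower. The cause of these moves was not tested. Leaving out Rps19bp1, or Rpl39l, Rps15a and Rps19bp1, or the dim probe of Rps15a from the AATCAC median, was chosen after seeing the data. No paired analysis was possible because each label has 1 array, and no replicate could be left out. Below 500 units repeat spots of a probe had an SD of 0.17 in the difference, against 0.05 between 500 and 5000 units. This limits Rpl39l, Tsc2, Tsr2 and the dim probes of Rps15a and Rpl21.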

Other observations

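Symbols containing -ps, which the member rule leaves out, were measured by 16 probes of 14 symbols, all detected. Their median difference was -0.02. The 13 probes of at least 10000 units ran from -0.08 (Rpl21-ps5, 61800 and 59700 units) to 0.17 (Rpl26-ps4, 25400 and 29200 units). Among them Rps6-ps2 read 182000 and 183000 units and Rpl7a-ps5 read 113000 and 112000 units. These sequences can be nearly identical to their parent transcripts, so signal from parent and copy cannot be told apart. Rps4y2, listed in RefSeq under Rps4l as a transcribed pseudogene, read 214 and 306 units, a difference of 0.48.

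Most genes next to Rpl39l in the RefSeq order were not detected and have no difference to set beside it, and those detected lay on opposite sides of 0. On one side Grin2a was not detected, 1810013L24Rik read 311 and 404 units (0.34), and Usp7 gave -0.26 ± 0.22 over 2 probes. On the other, Atf7ip2, Emp2 and Tekt5 were not detected.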
